A study of Mus musculus with 4 samples.

Results

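The imprinted growth-control genes are 10 genes of which mouse cells use mainly the maternal or mainly the paternal copy: H19, Igf2r, Cdkn1c, Grb10 and Phlda2 from the mother, and Igf2, Peg3, Mest, Peg10 and Impact from the father. Every probe set that the array's platform annotation gives to 1 of these genes alone was taken, which made 19 probe sets of 45101 on the array, for 9 of the 18193 genes with a probe set of their own. The maternally expressed genes had 7 of them and the paternally expressed genes 12. H19 had no probe set of its own, because the annotation gives its probe set to H19 and Mir675 together. That probe set is reported beside the members and counted with none of them.

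Many imprinted genes are controlled by a DNA methylation mark, set in the germ line on 1 parental copy of a control region, and are expressed mainly from 1 copy. Maternally expressed members of this group tend to restrain fetal and placental growth, and paternally expressed ones to promote it, with Igf2 as the main growth factor and Igf2r as the receptor that clears it. The marks are kept through early development by zinc finger proteins with their cofactor Trim28 and by the maintenance DNA methyltransferase. Embryonic stem cells in culture can lose or gain such marks. The arrays measure the transcripts of both copies together and cannot tell them apart.

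The cells were J1 mouse embryonic stem cells grown on gelatin with serum and leukaemia inhibitory factor, and every culture carried a doxycycline-inducible RNAi construct targeting Chd4, which encodes the remodelling ATPase of the NuRD deacetylase complex. They belong to 1 inducible line, Chd4i-1. For the Chd4 knockdown group (n = 2 arrays) doxycycline was given at 5 ng/ml over 3 days, while the control group (n = 2) came from the line without doxycycline. According to the series text each condition was run in biological duplicate. No doxycycline-treated line without the construct was analysed here, so effects of doxycycline, of RNAi and of Chd4 loss cannot be told apart.

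Chd4 itself was lower at each of its 3 probe sets, at 48.5% to 65.0% of control (limma adjusted p = 0.000244 to 0.00638). Trimmed mean signals were 496.3 to 497.1 on the 4 arrays, and the median signal of all non-control probe sets was 76.0. With 2 arrays per group, precision is limited by their number. Among embryonic stem cell markers, Pou5f1, Nanog, Sox2 and Zfp42 had signals of 10080 or more on every array and did not pass. Of the 4 others, Esrrb (-0.29, adjusted p = 0.00722) and Klf4 (-0.25, adjusted p = 0.0106) fell, Utf1 rose (0.31, adjusted p = 0.0142) and Tdgf1 did not pass.

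Values are deposited array signals, and differences are log2 signal in knockdown minus control with the standard error (SE) of the limma fit. Of the 19 probe sets 15 lay in the top 60% by mean signal and were tested together with all others. At an adjusted p under 0.05, 3 rose and 4 fell, where 14.2% of the 27022 probe sets tested passed (7.46% higher and 6.77% lower). The control and knockdown arrays did not overlap for 11 of the 15, against 55.9% of all probe sets tested. Without control replicate 1 the rises were 1. These calls rest on a variance model that follows the signal level. Without that trend 0 of 27022 probe sets passed in limma, with 5828 at an unadjusted p under 0.05, or 21.6%, so no call given here holds under that model.

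**Figure D1:**
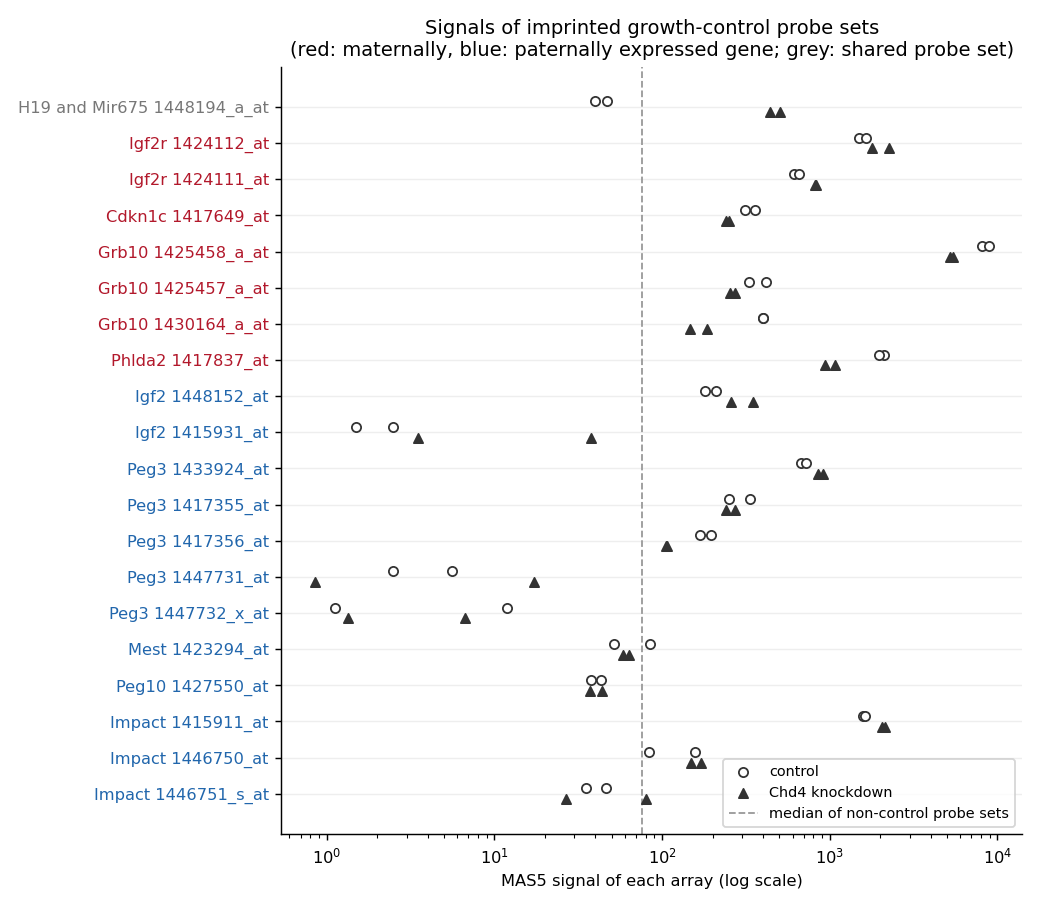
MAS5 signal (horizontal axis, log scale) of each of the 4 arrays for the 19 member probe sets and the probe set shared by H19 and Mir675. Open circles are control arrays, filled triangles Chd4 knockdown arrays, and the dashed line is the median of 76.0. The shared probe set crosses that line, while Mest and Peg10 stay near or under it.

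The largest difference at this group of loci was at 1448194_a_at, the probe set of H19 and Mir675. H19 is a maternally expressed long noncoding RNA that shares its enhancers and control region with its neighbour Igf2, and the microRNA hairpin Mir675 lies inside the H19 gene. The signals were 39.7 and 47.3 on the control arrays and 506.8 and 442.7 in the knockdown arrays. Both controls lay under the median of the array and both knockdown arrays far above it. The log2 difference was 3.45 ± 0.23 SE (limma adjusted p = 6.31e-06), a fitted value that rests on dim control signals. With signals under 76.0 set to that median, the rise was at least 6.23-fold, a bound that allows for dim signals only and is no confidence limit. The control mean of 43.5 ± 5.36 (SD, n = 2) was close to the lowest mean signal tested, 42.4. Which of the 2 named genes the probes measure is not settled by the annotation.

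The mature microRNAs of that hairpin are shown because they give the probe set its second name. They have no probe set of their own in the annotation. Capitals mark the seed, bases 2 to 8, and both lie on the minus strand of GRCm38.p6 in the RefSeq table, at chr7:142577112-142577133 and chr7:142577078-142577099.
mmu-miR-675-5p: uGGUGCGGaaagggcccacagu
mmu-miR-675-3p: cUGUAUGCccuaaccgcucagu

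Igf2, which encodes the growth factor of the same locus, was measured at 1448152_at with signals of 181.4 and 208.4 on the control arrays and 257.6 and 350.7 in the knockdown arrays. Both knockdown arrays were above both controls. The difference of 0.63 ± 0.20 SE did not pass (adjusted p = 0.0558), and its 95% interval ran from 0.20 to 1.06. The size depended on the arrays used. It was 0.85 without knockdown replicate 1 and 0.41 without knockdown replicate 2. Without control replicate 1 or 2 it was 0.53 or 0.73. The difference passed under a filter that kept only the top 40% (adjusted p = 0.044) and with 1 probe set per gene (adjusted p = 0.043). It did not pass with no filter (adjusted p = 0.0998) or when dim signals were raised to the median (adjusted p = 0.126). This probe set lay above that median on all 4 arrays, so the floor left its difference at 0.63. The second Igf2 probe set, 1415931_at, had signals of 37.9 or less on all 4 arrays and was under the filter. At this locus the H19 and Mir675 probe set therefore rose, and the values of Igf2 lay in the same direction without passing.

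Igf2r, the maternally expressed receptor that takes insulin-like growth factor 2 to lysosomes, rose at both of its probe sets. At 1424112_at the signals were 1498 and 1640 on the control arrays and 2258 and 1789 in the knockdown arrays. The difference was 0.36 ± 0.11 SE, or 1.28-fold (adjusted p = 0.0435). At 1424111_at they went from 611.3 and 654.5 to 831.6 and 812.9, with a difference of 0.38 ± 0.10 SE, or 1.30-fold (adjusted p = 0.0315). The groups did not overlap at either probe set, and the sizes were alike. The call at 1424112_at was lost when control replicate 1 was left out (0.29, adjusted p = 0.164) or knockdown replicate 1 (0.19, adjusted p = 0.255), and also after quantile normalization (adjusted p = 0.0564), with no filter (adjusted p = 0.0887) and when dim signals were raised to the median (adjusted p = 0.123). That at 1424111_at was lost when any 1 array was left out (adjusted p from 0.0638 to 0.157) and with the floor (adjusted p = 0.0552). All signals at 1424112_at and 1424111_at were above the median, so the floor changed neither difference. A further probe set, 1440979_at, is annotated to Igf2r and to its antisense RNA Airn, and stayed at 31.3 or less on every array.

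Grb10, an adaptor that binds the insulin and insulin-like growth factor receptors and dampens their signal, fell at 2 of its 3 probe sets. Its brightest, 1425458_a_at, had signals of 8132 and 8874 on the control arrays and 5434 and 5189 in the knockdown arrays. The difference was -0.68 ± 0.060 SE, a 1.60-fold fall (adjusted p = 4.98e-05). At 1430164_a_at the signals went from 397.4 and 402.2 to 186.6 and 147.3, a 2.41-fold fall (-1.27 ± 0.18 SE, adjusted p = 0.000873). At 1425457_a_at they were 328.8 and 417.4 against 272.2 and 253.7, with a difference of -0.50 ± 0.17 SE that did not pass (adjusted p = 0.071; -0.67 without control replicate 1, adjusted p = 0.0499). All 3 probe sets had knockdown arrays under both controls.

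The Grb10 probe sets were also compared within each array. For the brightest and the one that differed most from it, the signal of 1425458_a_at over that of 1430164_a_at was 20.5 and 22.1 in the control arrays and 29.1 and 35.2 in the knockdown arrays, a change of 0.59 on the log2 scale. The ranges did not overlap, and these ratios were not tested. The pair was chosen by its values, so a shift is partly built in. At 1425457_a_at the fall was smaller than at the brightest (-0.50 against -0.68), so the ratio over that probe set shifted the other way. The suffix of these probe sets marks probes that hit several transcripts of a gene, and which Grb10 transcripts each one reads was not determined here.

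Phlda2, a pleckstrin homology domain protein known for limiting the growth of the placenta, fell by more than any other member gene at its brightest probe set. Its only probe set, 1417837_at, had signals of 2094 and 1957 on the control arrays and 938.1 and 1079 in the knockdown arrays. The mean fell from 2025 ± 96.8 to 1009 ± 99.9 (SD, n = 2 per group), a 2.01-fold change (-1.01 ± 0.092 SE, adjusted p = 5.7e-05). The call was kept without each of the 4 arrays in turn.

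Cdkn1c, an inhibitor of cyclin-dependent kinases, lies in the same imprinted domain as Phlda2. Its signals at 1417649_at were 357.8 and 313.5 on the control arrays and 251.9 and 239.1 in the knockdown arrays. Both knockdown arrays were lower, but the difference of -0.45 ± 0.16 SE did not pass (adjusted p = 0.0874), with a 95% interval from -0.80 to -0.098.

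**Figure D2:**
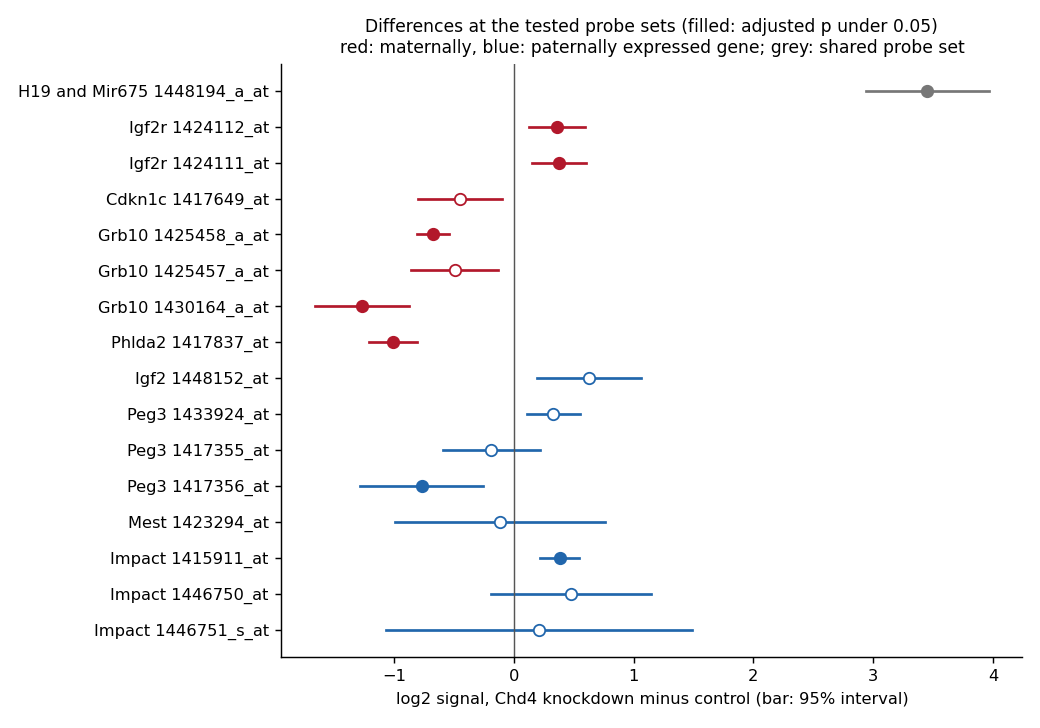
Log2 difference in signal, Chd4 knockdown minus control, with its 95% interval, for the 15 member probe sets tested and the probe set of H19 and Mir675. Filled points passed at an adjusted p under 0.05; the shared probe set stands at 3.45, the Phlda2 probe set at -1.01, and the Peg3 probe sets lie on both sides of 0.

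Peg3, a paternally expressed zinc finger protein, gave opposite values at its probe sets. At 1433924_at, the brightest, the signals were 674.8 and 724.8 on the control arrays and 849.7 and 910.3 in the knockdown arrays (0.33 ± 0.10 SE, adjusted p = 0.0527). At 1417356_at they went down, from 196.4 and 167.8 to 105.8 and 107.3 (-0.77 ± 0.23 SE, adjusted p = 0.0492). At 1417355_at they were 252.1 and 335.6 against 271.3 and 240.2, with overlapping groups (-0.19 ± 0.18 SE, adjusted p = 0.562).

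Neither Peg3 value was firm. The call at 1417356_at ended without any 1 of the 4 arrays (adjusted p between 0.0815 and 0.266) and with no filter (adjusted p = 0.097). The value at 1433924_at passed under the top 40% filter (adjusted p = 0.0406) and with 1 probe set per gene (adjusted p = 0.038). With all Peg3 probe sets averaged the difference was -0.18 (adjusted p = 0.863), although that mean includes 1447731_at and 1447732_x_at, which had signals of 17.1 or less on every array. Within an array, for a pair chosen after the values were seen, the signal of 1433924_at over that of 1417356_at was 3.44 and 4.32 on the control arrays and 8.03 and 8.48 in the knockdown arrays, without overlap and likewise not tested.

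**Figure D3:**
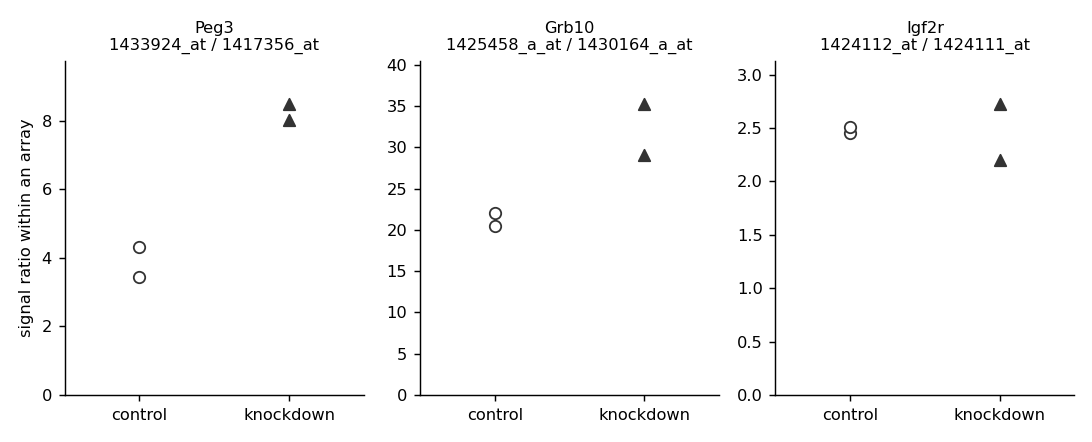
Ratio of the signals of 2 probe sets of 1 gene within each array (vertical axes start at 0), for Peg3, Grb10 and Igf2r. The Peg3 and Grb10 pairs were chosen after the values were seen. Circles are control and triangles Chd4 knockdown arrays; the ratios do not overlap between groups for Peg3 and Grb10, while those of Igf2r do, at 2.45 and 2.51 on the control arrays and 2.72 and 2.20 in the knockdown arrays.

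Impact, a paternally expressed regulator of translation that restrains the kinase Gcn2, rose at its brightest probe set. The signals at 1415911_at were 1578 and 1619 on the control arrays and 2130 and 2039 in the knockdown arrays, a difference of 0.38 ± 0.074 SE, or 1.30-fold (adjusted p = 0.00613). The groups did not overlap, and the call was kept without each array in turn. At its other probe sets the groups overlapped. 1446750_at ranged from 83.6 to 156.6 on the control arrays and from 149.3 to 169.9 in the knockdown arrays (0.48 ± 0.30 SE, adjusted p = 0.343). 1446751_s_at ranged from 35.2 to 46.1 and from 26.9 to 80.7 (0.21 ± 0.58 SE, adjusted p = 0.86). Averaged over the 3 probe sets the gene no longer passed (0.36, adjusted p = 0.366).

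Mest, which encodes a hydrolase-like protein of the mesoderm, and Peg10, a gene derived from a retrotransposon and needed in the placenta, were near the floor of these arrays. Mest had signals of 85.1 and 51.7 on the control arrays and 63.9 and 58.6 in the knockdown arrays (-0.12 ± 0.40 SE, adjusted p = 0.889). Its 95% interval, from -0.99 to 0.76, holds changes in either direction. Peg10 had 43.0 and 37.8 against 44.0 and 37.0 and was not tested, since its mean lay under the lowest mean signal tested, 42.4.

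The maternally and paternally expressed genes were then set side by side, each gene at its brightest probe set. Among the 4 maternally expressed genes tested, Grb10 and Phlda2 fell, Igf2r rose and Cdkn1c did not pass. Among the 4 paternally expressed genes tested, Impact rose, and Igf2, Peg3 and Mest did not pass. Over all 12615 genes tested 10.3% rose and 7.79% fell, 18.1% in all. The groups did not overlap for 7 of these 8 genes, all but Mest, against 60.6% of all genes tested. The median log2 difference was -0.56 for the maternally expressed and 0.36 for the paternally expressed genes, beside 0.014 for all genes tested.

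On single arrays the class medians, taken against each gene's control mean, were -0.53 and -0.60 for the maternally expressed genes in the knockdown arrays. For the paternally expressed genes they were 0.34 and 0.37. All 4 control values lay between -0.035 and 0.035. Those of a class mirror each other around 0 by construction, since each gene's control mean was subtracted. The order of the classes was the same on both knockdown arrays, which were set against the same control mean. Each class held 4 genes and no test over a class was made. The split was not clean in either class. Igf2r rose among the maternally expressed genes, as did the H19 and Mir675 probe set, with which the maternal median became -0.45. When the probe sets of each gene were averaged, the paternal median was -0.12, over 3 genes, because Peg3 changed sign and Igf2 with its dim second probe set was no longer tested.

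The promoters of Phlda2, Grb10 and Igf2r, which moved at their brightest probe set, are shown. Each CG dinucleotide, the site of DNA methylation in mammals, is in capitals. RefSeq windows of GRCm38.p6 were used for 6 of the 10 genes. H19, Cdkn1c, Peg10 and Impact are named only, although Impact moved at its brightest probe set too. Each window is the 250 bases before an annotated start, on the minus strand, and no methylation was measured in this study. The Phlda2 window is chr7:143502525-143502774, the Igf2r window chr17:12769707-12769956, and the windows of the upstream and downstream Grb10 starts are chr11:12037421-12037670 and chr11:12027972-12028221.
Phlda2: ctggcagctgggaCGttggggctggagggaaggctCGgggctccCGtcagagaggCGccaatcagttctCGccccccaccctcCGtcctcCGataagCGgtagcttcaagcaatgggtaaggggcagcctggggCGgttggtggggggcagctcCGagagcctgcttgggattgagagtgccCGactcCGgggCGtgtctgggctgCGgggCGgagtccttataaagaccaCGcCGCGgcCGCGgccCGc
Grb10 upstream: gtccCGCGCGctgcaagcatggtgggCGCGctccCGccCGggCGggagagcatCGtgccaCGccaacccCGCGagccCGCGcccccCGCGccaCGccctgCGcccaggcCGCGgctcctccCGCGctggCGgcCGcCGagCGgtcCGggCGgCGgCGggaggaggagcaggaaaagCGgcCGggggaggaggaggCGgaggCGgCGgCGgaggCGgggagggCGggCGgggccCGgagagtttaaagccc
Grb10 downstream: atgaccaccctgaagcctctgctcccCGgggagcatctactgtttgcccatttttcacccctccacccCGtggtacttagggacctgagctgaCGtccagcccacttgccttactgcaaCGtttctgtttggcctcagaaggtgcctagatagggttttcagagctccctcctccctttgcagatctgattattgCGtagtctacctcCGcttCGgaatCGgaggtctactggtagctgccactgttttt
Igf2r: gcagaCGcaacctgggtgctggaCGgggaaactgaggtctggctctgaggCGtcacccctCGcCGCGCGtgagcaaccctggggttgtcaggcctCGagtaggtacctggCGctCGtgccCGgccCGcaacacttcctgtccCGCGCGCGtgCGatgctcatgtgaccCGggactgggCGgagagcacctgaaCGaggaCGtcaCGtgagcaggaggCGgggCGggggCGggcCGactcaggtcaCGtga

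The Phlda2 window held 21 CG dinucleotides, the upstream Grb10 window 40, the downstream one 8 and the Igf2r window 27, where the median of all 32851 windows was 6. Genes that did not pass had windows above that median too, with up to 14 CG dinucleotides for Mest, 22 for Igf2 and 8 for Peg3. The hexamer TGCCGC, the core of the methylated motif of the imprint protein Zfp57, was searched on both strands. It was in none of these 4 windows, in 2 of the 12 member windows, both of Mest, and in 8.68% of all windows. The 2 Mest windows overlap, so they hold the same matches. Only the 250 bases before annotated starts were searched. The counts therefore do not tell whether an imprint control region outside these windows holds the hexamer.

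Among other genes of the members' imprinted domains, 34 were on the array and 18 were tested. Of these 1 rose and 3 fell, where 18.1% of all genes tested passed. Both flanks of Grb10 held one of them. Cobl, an actin nucleator gene, had signals of 2508 and 2484 on the control arrays and 1373 and 1379 in the knockdown arrays, a 1.81-fold fall (-0.86 ± 0.073 SE, adjusted p = 3.2e-05). Ddc, the dopa decarboxylase gene, went from 1716 and 1830 to 2482 and 2795, a 1.49-fold rise (adjusted p = 0.00091). It lost its call when its probe sets were averaged (0.37, adjusted p = 0.55). Ddc had 0 other tested probe sets, so that mean took in signals under the filter. Neighbours of Grb10 on either side thus moved in opposite directions.

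Pon2, a paraoxonase gene near Peg10, fell 2.18-fold from 236.6 and 325.3 to 112.4 and 143.7 (adjusted p = 0.00762). Its call did not hold without control replicate 2 (-0.90, adjusted p = 0.0768) or with probe sets averaged (-1.14, adjusted p = 0.0913). Tspan32, a tetraspanin gene of the Kcnq1 domain, fell from 181.4 and 222.2 to 108.9 and 126.9 (-0.77 ± 0.23 SE, adjusted p = 0.0446). The Tspan32 call did not hold without control replicate 1 (-0.92, adjusted p = 0.0749), control replicate 2 (-0.63, adjusted p = 0.269) or knockdown replicate 1 (-0.66, adjusted p = 0.115), and its averaged probe sets gave 0.30 (adjusted p = 0.646). Tspan32 too had 0 other tested probe sets, so its average took in signals under the filter. The neighbours of Phlda2 and Cdkn1c with higher signals were close to 0, with Cd81 at -0.058 ± 0.059 SE and Nap1l4 at -0.014 ± 0.061 SE (adjusted p = 0.579 and 0.915).

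Among imprinted genes elsewhere in the genome, 25 of 31 on the array were tested, 4 rose and 1 fell. Of all genes tested 10.3% rose and 7.79% fell. Gab1, a docking protein gene imprinted in the placenta, rose 1.66-fold from 1081 and 1091 to 1753 and 1856 (adjusted p = 0.000193), with both other probe sets of the same sign. Sfmbt2, a Polycomb group gene also imprinted in extraembryonic tissue, went from 53.1 and 56.0 to 155.7 and 201.3, a rise of at least 2.33-fold by the same floor (adjusted p = 0.00302). It did not pass with its probe sets averaged (1.17, adjusted p = 0.055). Zdbf2, a paternally expressed gene, fell 1.35-fold from 1395 and 1303 to 1021 and 971.0 (adjusted p = 0.00748; -0.39 without control replicate 1, adjusted p = 0.0523).

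The remaining calls of that list were less firm. H13, a signal peptide peptidase gene, rose from 644.0 and 612.3 to 831.4 and 832.5 (0.41 ± 0.10 SE, adjusted p = 0.0218). None of its 4 other tested probe sets had the same sign, and the call ended without any 1 array (adjusted p from 0.0513 to 0.107). Rian, a maternally expressed noncoding RNA, rose 1.26-fold (adjusted p = 0.0319), with 1 of 3 other probe sets of the same sign. That call was lost when control replicate 2 (0.28, adjusted p = 0.125) or knockdown replicate 2 (0.19, adjusted p = 0.177) was left out.

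**Figure D4:**
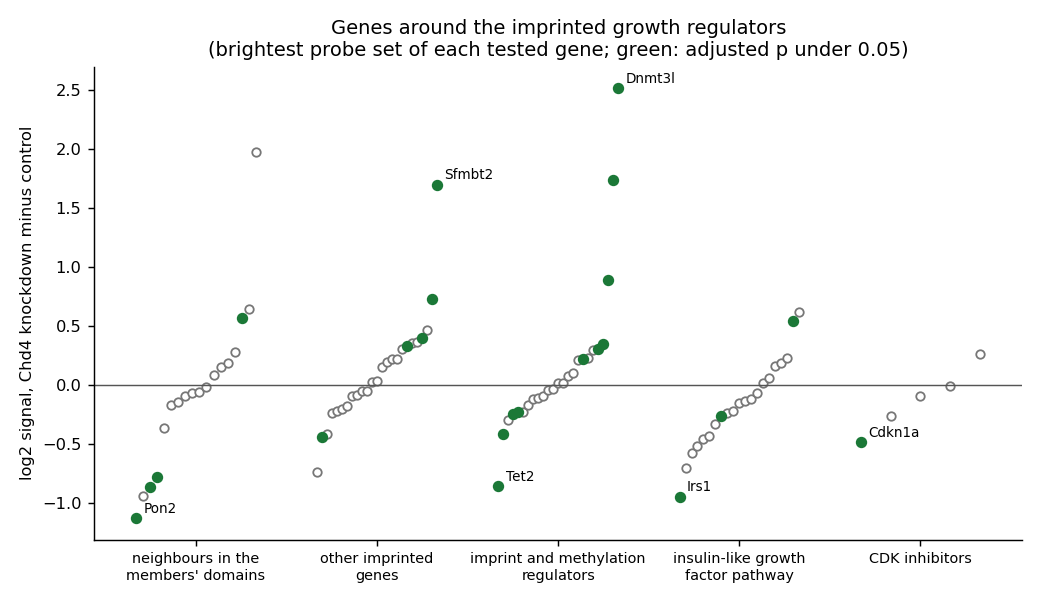
Log2 difference in signal, Chd4 knockdown minus control, of each tested gene at its brightest probe set in 5 gene lists, ordered by value within a list. Green points passed at an adjusted p under 0.05; Dnmt3l at 2.52 and Sfmbt2 at 1.70 are the highest called genes of their lists, and Pon2 at -1.13 is the lowest.

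Regulators of imprints and DNA methylation gave 6 rises and 4 falls among 25 tested genes, where 18.1% of all genes tested passed. Dnmt3l, the cofactor of de novo methylation in germ cells, rose 5.74-fold from 1256 and 1084 to 6541 and 6846 (adjusted p = 2.24e-08). Dppa3, which protects imprints in the zygote, rose 3.34-fold from 329.5 and 356.3 to 1271 and 1032 (adjusted p = 9.53e-06). Dnmt3b, which encodes a de novo methyltransferase, had a difference of 0.89 ± 0.070 SE and rose (adjusted p = 1.75e-05), and the dioxygenase gene Tet2 fell 1.81-fold (adjusted p = 9.53e-05). None of these 4 calls was lost when an array was left out. Their part in the values of the imprinted genes was not tested.

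Factors that keep imprints in stem cells were added after their values were seen. Dnmt3l, Dppa3, Dnmt3b and Tet2 had been named for the smallest p of their list. Smaller differences here are therefore partly built in. Trim28 had a difference of 0.23 ± 0.049 SE (adjusted p = 0.011) and Zfp445 one of -0.24 ± 0.067 SE (adjusted p = 0.0335), and both passed. Zfp57, the zinc finger protein that binds methylated imprint control regions, had -0.30 ± 0.15 SE (adjusted p = 0.224), and the maintenance methyltransferase gene Dnmt1 -0.17 ± 0.060 SE (adjusted p = 0.0856).

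In the insulin-like growth factor pathway 21 of 28 genes on the array were tested, 1 rose and 2 fell. The share that passed among all genes tested was 18.1%. Igf2bp1, which binds Igf2 mRNA, rose 1.46-fold from 3390 and 2968 to 4663 and 4609 (adjusted p = 0.000589), with all 3 other probe sets of the same sign. Its relative Igf2bp3 fell 1.20-fold from 2117 and 2058 to 1739 and 1754 (adjusted p = 0.0361), and the call ended without any 1 array (adjusted p from 0.0731 to 0.171). The adaptor gene Irs1 fell 1.92-fold from 227.0 and 167.6 to 98.9 and 103.9 (adjusted p = 0.0257; -0.73 without control replicate 1, adjusted p = 0.223). Shc1, another adaptor gene, had -0.32 ± 0.11 SE and did not pass (adjusted p = 0.0674).

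Relatives of the members in other families gave 2 falls, where 7.79% of all genes tested fell. Among the 5 tested inhibitors of cyclin-dependent kinases other than Cdkn1c, Cdkn1a fell 1.40-fold from 1036 and 984.4 to 652.2 and 803.0 (adjusted p = 0.0171). Leaving out control replicate 1 (-0.44, adjusted p = 0.0721) or knockdown replicate 1 (-0.33, adjusted p = 0.0845) ended the call. Cdkn1b had -0.26 ± 0.10 SE (adjusted p = 0.115; -0.39 without knockdown replicate 2, adjusted p = 0.0249), Cdkn3 0.27 ± 0.13 SE and the dim Cdkn2c -0.090 ± 0.47 SE (adjusted p = 0.197 and 0.927). Of the genes related to Phlda2, Phlda3 fell 1.88-fold from 1614 and 1598 to 871.3 and 833.7 (adjusted p = 6.69e-05). Phlda1 had 0.45 ± 0.21 SE (adjusted p = 0.178).

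Markers of tissues in which these imprinted genes are known to be abundant were checked in the same arrays, where 18.1% of all genes tested passed. In bulk samples fewer cells of a type and less RNA per cell cannot be told apart. The summed signal of 8 trophoblast markers was 1584 and 1727 on the control arrays and 2483 and 2519 in the knockdown arrays. Krt18 alone gave 558.4 and 537.6 of the control sums and 1194 and 1243 of the knockdown sums. It rose 2.22-fold (adjusted p = 3.2e-05) and Krt7, with control signals under the median, at least 3.06-fold (adjusted p = 0.000975), 2 of the 5 tested. Krt8 gave more of the control sums, 669.5 and 681.7, against 712.8 and 779.1 in the knockdown arrays. Its difference of 0.14 ± 0.11 SE did not pass (limma adjusted p = 0.426), and 0 of its 2 other tested probe sets had the same sign. Of the trophoblast factors listed, Cdx2 and Elf5 had signals of 66.0 or less and 60.8 or less on every array, under the median. Eomes (129.5 to 184.2) and Hand1 (83.4 to 111.3) lay above the median on every array and did not pass (adjusted p = 0.592 and 0.867).

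The summed signal of 10 extraembryonic endoderm markers was 1004 and 1011 on the control arrays and 849.7 and 841.3 in the knockdown arrays, with 1 of 6 tested genes, Lama1, lower (adjusted p = 0.0378) and none higher. Gata6 and Sox17 had signals of 55.5 or less and 46.4 or less. The 4 mesoderm markers summed to 240.3 and 95.1 on the control arrays and 240.6 and 175.9 in the knockdown arrays, with 0 calls among the 2 tested in limma, both at an unadjusted p above 0.05. The 6 fibroblast markers summed to 3512 and 3437 against 2812 and 2287, of which Vim alone gave 3220 and 3104 against 2069 and 1633. Thy1 was higher and Vim lower among the 3 tested (adjusted p = 7e-05 and 0.000446). The part of other cell types in the values of the imprinted genes was not tested.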

How the data were processed

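Total RNA of 4 cultures was labelled with biotin and hybridised to single-colour Affymetrix mouse arrays, per the labels' protocols. The authors deposited 1 linear intensity, the MAS5 signal, for each probe set and array, per the submitters' processing notes; the version, the scaling target and detection calls are not given in the sources used here. Groups and replicate numbers came from the sample titles. Of 45037 non-control probe sets, 34945 had 1 gene symbol in the platform annotation, 932 several and 9160 none. The top 60% by mean log2 signal (27022 probe sets, mean signal 42.4 or more) were tested with limma 3.58.1 in R 4.3.3, on log2 signal without a pseudocount, by lmFit and eBayes, with prior variance following signal (degrees of freedom 2 residual, 9.24 prior), two-sided, with Benjamini-Hochberg adjustment over all probe sets tested and a threshold of 0.05. A gene was represented by its brightest probe set. Errors are standard errors of this fit unless marked SD. The fit was also run on simulated data drawn with its own fitted variances, which cannot test the variance model that follows signal.

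The members and the gene lists were chosen with earlier results of these data known. By rule, the genes named are every member probe set, Chd4 and, from each of 6 lists, up to 4 tested genes with the smallest p and all called genes where 6 or fewer were called. Markers are named to describe their lists, and Trim28, Zfp445, Zfp57, Dnmt1, Cd81, Nap1l4, Meg3, Mirg, Dlk1, Kcnq1ot1, Igf1r and Insr were added after their values were seen; alternatives were not run for these and the markers. The median signal of 76.0 was used as a floor for the folds of dim probe sets, a choice made after the values were seen. Alternatives covered normalization, pseudocount, filter, variance model, replicate block, probe set choice, the floor and each array left out. A planned comparison of protein sequences was not run, since protein sequences were not used here. Same-numbered arrays did not deviate together (correlation of deviations -0.0019), so the numbers were not treated as pairs.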

Additional observations from a re-analysis of the deposited data

How the results depend on the processing

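The count of member probe sets that rose was 3 and of those that fell 4. It was 5 higher in the top 40% of probe sets, and 0 higher and 0 lower without an intensity trend, under which none of the 27022 probe sets passed, against 3847 in the reported fit. With 1 probe set per gene 4 members rose and 2 fell, among 8 tested, and with probe sets averaged 1 rose and 2 fell among 7, where fewer members entered the fit by construction. With the floor at the median 1 rose. Leaving out 1 array gave 1 to 2 rises and 3 to 4 falls; an arm with 1 array is then assumed to vary like the other. All genes together gave 2430 calls without control replicate 2 and 1380 with probe sets averaged. The median difference of the maternally expressed genes was -0.60 to -0.53 over the left-out arrays, -0.63 with probe sets averaged and -0.45 with the H19 and Mir675 probe set, an alternative chosen after seeing the data. That of the paternally expressed genes was 0.32 to 0.39 over the left-out arrays and -0.12 with probe sets averaged; the other alternatives moved neither median by more than the spread between arrays.

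Signs changed for Peg3 (-0.18) and Tspan32 (0.30) with probe sets averaged, and over the left-out arrays for Mest (-0.48 to 0.25) and Cdkn2c (-0.59 to 0.41), highest without control replicate 1, for Peg3 at 1417355_at (-0.40 to 0.018), highest without control replicate 2, and for Impact at 1446751_s_at (-0.58 to 1.00), lowest without knockdown replicate 1. For Peg3 and Tspan32 the average took in probe sets under the filter. The causes of the sign changes were not tested. With the replicate number as a block 3635 probe sets passed, 4 members rose and 3 fell: Igf2 passed (0.63, adjusted p = 0.0448), while Peg3 at 1417356_at (-0.77, adjusted p = 0.0655) and Tspan32 (-0.77, adjusted p = 0.0501) did not, and it changed no other call among the member probe sets, that of H19 and Mir675, the brightest Chd4 probe set and the genes named by the rule, for which it was run. With no filter Tspan32, Rian, Irs1 and Igf2bp3 did not pass (adjusted p = 0.088, 0.0714, 0.0573 and 0.0565), and with the floor neither did Tspan32, Rian and Cdkn1a (adjusted p = 0.0611, 0.105 and 0.0621). With probe sets averaged H13 (0.029), Rian (0.15) and Igf2bp3 (-0.21) did not pass (adjusted p = 0.965, 0.27 and 0.127), and with 1 probe set per gene Shc1 did (adjusted p = 0.0493). The brightest Chd4 probe set did not pass with the floor (-0.62, adjusted p = 0.0552). At their brightest probe sets Chd4, Tspan32, Rian and Cdkn1a had no signal under the floor, so it left their differences unchanged. Dim signals limit what can be said of Mest, Peg10 and the control level of the H19 and Mir675 probe set.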

Other observations

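Beside Rian, the other maternally expressed noncoding RNAs of the Dlk1 and Meg3 domain had values above 0 without passing; they were chosen after their values were seen. Meg3 had mean signals of 5297 in the controls and 6170 in the knockdown arrays (0.22 ± 0.069 SE, limma adjusted p = 0.054), with 8 of its 10 other tested probe sets of the same sign. Mirg had 522.1 and 608.6 (0.23 ± 0.13 SE, adjusted p = 0.268). The paternally expressed Dlk1 of the same domain was dim, with mean signals of 82.6 and 83.1 (-0.092 ± 0.39 SE, adjusted p = 0.910). Kcnq1ot1, the noncoding RNA whose paternal expression accompanies silencing of Cdkn1c and Phlda2 on that copy, had mean signals of 329.8 and 378.2 (0.19 ± 0.15 SE, adjusted p = 0.471), and none of its 3 other tested probe sets had the same sign. The receptor genes Igf1r and Insr had differences of -0.45 ± 0.17 SE and -0.43 ± 0.15 SE (adjusted p = 0.0945 and 0.087), with all of their 4 and 1 other tested probe sets of the same sign.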
